A study of Mus musculus with 38 samples.

Results

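Cyp2c29, Cyp2c37, Cyp2c38, Cyp2c39, Cyp2c50, Cyp2c54, Cyp2c55, Cyp3a11, Cyp3a13 and Cyp3a25 are 10 mouse genes of the Cyp2c and Cyp3a cytochrome P450 families, of 22485 genes measured. They were taken by gene symbol from the annotated array probes, and where a gene had several probes the probe of highest mean stood for it. RNA came from the livers of 37 males, 11 to 12 weeks old and of Mixed (FVB/N-C57Bl/6) strain, which fell into 11 groups of 3 or 4 mice. A mouse is named here by its group and number, as in IR.fl_Refed_566. IR.fl mice carried a floxed insulin receptor gene (Insr) and served as controls. IR.KO (LIRKO) mice lacked the receptor in liver. IRF.fl mice carried floxed Insr and FoxO1 alleles, and IRF.KO (LIRFKO) mice lacked both in liver. Livers were taken after a fast, given as overnight in one label and as 24 h in another (Fast), 6 h after refeeding (Refed), or 60 min after glucose (GTT). IR.fl had 4 fasted, 4 refed and 3 glucose-treated mice. IR.KO had 3, 4 and 3, IRF.KO had 3, 4 and 3, and IRF.fl had 3 fasted and 3 refed mice and no glucose group.

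Deletion in both knockout lines was driven by albumin-Cre, which acts in hepatocytes, so other liver cells kept their alleles. The FoxO1 floxed allele came from FVB/N and the Insr floxed allele from C57bl/6, so loss or presence of a floxed FoxO1 allele and the strain of the surrounding genome cannot be told apart between the lines. In whole liver RNA, fewer cells of a type and less RNA per cell cannot be told apart either.

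Cyp2c and Cyp3a enzymes sit in the membrane of the endoplasmic reticulum of hepatocytes and oxidise drugs, steroids, retinoids and fatty acids, drawing electrons from P450 oxidoreductase. Most of their genes lie in clusters of related copies, while Cyp3a13 lies between Pilrb2 and Gjc3. Many of the genes are induced by drugs and bile acids through the nuclear receptors CAR (Nr1i3) and PXR (Nr1i2). These receptors bind DNA as partners of RXR at repeats of the half-sites AGGTCA and AGTTCA. Insulin, acting through its receptor, drives the transcription factor FoxO1 out of the nucleus. FoxO1 and the related FoxA factors recognise the sequence GTAAACA.

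Values are log2 intensities, so a difference of 1 is 2-fold. Each group difference was estimated with limma over all 37 livers and 22485 genes, with dye as a term and the array as a random block. A difference is given with its standard error (SE), and was called where the Benjamini-Hochberg adjusted p over all genes was under 0.05. Because of the dye term and the array block, a fitted difference can depart from the plain difference of group means.

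The targeted genes were read as a check of the labels. Insr was lower in IR.KO than in IR.fl livers by 1.76 ± 0.23 fasted and 1.51 ± 0.21 refed (limma adjusted p = 1.32e-05 and 1.16e-05), and Foxo1 was lower in IRF.KO than in IR.KO livers by 2.64 ± 0.41 refed (adjusted p = 1.03e-04). Insr was also lower in IRF.KO than in IR.KO livers after glucose, by 0.84 ± 0.24, and over the 3 states, by 0.43 ± 0.14 (limma adjusted p = 0.02954 and 0.03448). It was not called between them fasted or refed (adjusted p = 0.8976 and 0.3493). The library labelled IRF.fl_Fast_523 went against its label, with Foxo1 at 6.77 where the other livers of that label had 10.57 and 10.17, and Insr at 6.90 against 8.27 and 8.14. The fasted comparison of IRF.KO with IRF.fl, which includes this library, called neither Foxo1 nor Insr. Main differences named for a gene that use this library are given with and without it, while plotted levels and correlations include it. Values from second probes, from means of probes and from fits that leave out another liver also include it. One further library, IRF.KO_GTT_724, has labels that disagree on its treatment and entered no group. Livers of a group correlated at 0.9759 to 0.9952 over all features. Hepatocyte markers (7 of 8 measured) had a mean level between 14.29 and 15.40 in every liver. Acinar markers of the pancreas (6 of 7 measured) stood at 6.14 to 7.77 in most livers and at 9.53, 10.85 and 11.58 in 1 fasted IR.fl, 1 glucose-treated IR.fl and 1 refed IRF.KO liver; their part in any result was not tested.

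The starts of 9 of the 10 genes had a window in RefSeq (GRCm38.p6), 11 windows in all, each from 250 bases before to 50 after a start. Shown here are the 250 bases before the start of Cyp2c37, Cyp2c38, Cyp2c39 and Cyp3a25, the genes whose levels differed between groups, and of Cyp2c50, whose window is the closest to that of Cyp2c37. Each is written 5′ to 3′ on the strand of its gene, and capitals mark the half-sites named above and GTAAACA, on either strand.
Cyp2c38, chr19:39463076-39463325, minus strand: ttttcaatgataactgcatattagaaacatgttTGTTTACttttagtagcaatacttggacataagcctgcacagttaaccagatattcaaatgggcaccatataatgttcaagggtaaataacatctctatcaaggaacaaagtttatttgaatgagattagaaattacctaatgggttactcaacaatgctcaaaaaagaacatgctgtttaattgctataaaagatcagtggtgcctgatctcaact
Cyp2c39, start nearer Cyp2c29, chr19:39347096-39347345, plus strand: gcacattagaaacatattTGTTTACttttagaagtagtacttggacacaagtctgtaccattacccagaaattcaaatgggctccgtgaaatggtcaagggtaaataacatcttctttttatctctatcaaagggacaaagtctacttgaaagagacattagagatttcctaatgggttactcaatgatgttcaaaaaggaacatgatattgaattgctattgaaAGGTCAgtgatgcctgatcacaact
Cyp2c39, start nearer Cyp2c67, chr19:39510572-39510821, plus strand: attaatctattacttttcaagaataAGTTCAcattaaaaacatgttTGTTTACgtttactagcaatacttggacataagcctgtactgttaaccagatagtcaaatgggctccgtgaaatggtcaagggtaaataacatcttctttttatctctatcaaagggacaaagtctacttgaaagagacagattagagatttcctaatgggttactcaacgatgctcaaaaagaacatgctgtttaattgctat
Cyp2c37, chr19:39992174-39992423, plus strand: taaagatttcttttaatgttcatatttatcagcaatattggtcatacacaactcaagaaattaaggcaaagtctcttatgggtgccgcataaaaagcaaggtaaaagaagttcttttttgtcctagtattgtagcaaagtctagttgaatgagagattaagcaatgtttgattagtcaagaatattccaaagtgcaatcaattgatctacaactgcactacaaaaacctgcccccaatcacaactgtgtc
Cyp2c50, chr19:40089429-40089678, plus strand: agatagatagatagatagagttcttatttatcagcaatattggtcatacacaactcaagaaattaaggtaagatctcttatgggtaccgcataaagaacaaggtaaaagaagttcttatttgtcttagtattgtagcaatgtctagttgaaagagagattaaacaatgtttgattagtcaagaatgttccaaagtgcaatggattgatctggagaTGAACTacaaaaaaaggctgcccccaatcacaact
Cyp3a25, chr5:146009618-146009867, minus strand: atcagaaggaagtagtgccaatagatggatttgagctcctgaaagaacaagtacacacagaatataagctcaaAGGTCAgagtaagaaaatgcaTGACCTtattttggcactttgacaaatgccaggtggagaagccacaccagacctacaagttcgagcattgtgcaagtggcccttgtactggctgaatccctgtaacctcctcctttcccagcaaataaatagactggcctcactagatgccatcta

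GTAAACA, read on both strands, occurred in 4 of the 11 windows, at -217 in Cyp2c38, at -232 and -204 in the windows of Cyp2c39 and at -198 in Cyp3a11. Of 32851 RefSeq windows of the same length, 3.65% held it. AGGTCA was in 5 of the 11 windows against 16.3% of all, and AGTTCA in 3 against 14.0%. The 5 include both windows of Cyp3a25, whose annotated starts lie 1 base apart and which hold the same matches. The Cyp3a25 window printed here held AGGTCA on each strand, at -177 and -156. Direct repeats of either half-site with a gap of 3 (DR3) or 4 bases (DR4), each of which contains the half-sites themselves, were in 0 of the 11 windows and in 0.0122% and 0.0274% of all. GTTAAT, a half-site of HNF1, and CAAAACA were in 0 of the 11 windows, against 7.1% and 6.28%. These matches are descriptions of the letters in the windows. The GTAAACA of Cyp2c38 and Cyp2c39 lies in windows that are alike at large: Cyp2c38 shared 78.1% of aligned bases with the first Cyp2c39 window and 72.6% with the second. The Cyp2c37 window shared 86.6% with that of Cyp2c50 and 56.9% with that of Cyp2c38.

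Loss of the receptor was compared first, with IR.KO set against IR.fl livers in each state. Cyp2c37, an arachidonic acid hydroxylase, Cyp2c38, an arachidonic acid epoxygenase, and Cyp2c39, which hydroxylates retinoic acid, were higher in refed IR.KO than in refed IR.fl livers, by 4.26-fold, 2.64-fold and 3.17-fold, and were lower again in refed IRF.KO livers. They were 3 of 10 genes called in the first comparison, in which 11.6% of all genes were called in either direction. The other 7 were not called, and the differences of all 10 ran from -0.37 to 2.09 with a median of 0.63, against -0.003 over all genes.

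Cyp2c39 showed the smallest standard error of the 3. Its level was 12.67, 13.50, 13.23 and 13.20 in the 4 refed IR.KO livers and 11.60, 11.68, 11.40 and 11.38 in the 4 refed IR.fl livers. Every IR.KO liver was above every IR.fl liver, and the SD was 0.345 in IR.KO and 0.148 in IR.fl. The fitted difference was 1.66 ± 0.28 (95% interval 1.09 to 2.24, limma adjusted p = 1.55e-04). Within the 3 slides that held both groups it was 1.17, 1.85 and 1.52. Leaving out each liver in turn gave 1.48 to 1.88, called each time.

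Cyp2c37 varied more among control livers. It stood at 12.35, 12.60, 12.18 and 12.70 in refed IR.KO livers and at 11.59, 10.52, 10.46 and 8.70 in refed IR.fl livers, with IR.fl_Refed_566 the lowest of all 37 livers. The groups did not overlap, and the SD was 0.234 in IR.KO against 1.196 in IR.fl. The fitted difference was 2.09 ± 0.48 (95% interval 1.11 to 3.07, limma adjusted p = 0.003536) and it was 1.32, 3.48 and 2.18 within the 3 slides. It fell to 1.50 without IR.fl_Refed_566 and remained called in each of the 8 fits that left out a liver. When the 2 groups were fitted alone it was 2.14 with an adjusted p of 0.0565.

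Cyp2c38 levels were 12.79, 13.56, 13.33 and 13.05 in refed IR.KO livers and 11.77, 12.38, 11.60 and 12.09 in refed IR.fl livers. The lowest IR.KO liver was again above the highest control. The fitted difference was 1.40 ± 0.35 (95% interval 0.68 to 2.12, limma adjusted p = 0.007458), with 1.11, 1.24 and 0.67 within slides. Groups that did not overlap in this direction were found for 7.57% of all genes.

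Second probes showed the same direction for both genes that had one. The other probe of Cyp2c38 gave 3.09 ± 0.56 (limma adjusted p = 3.74e-04), and the mean of both probes 2.24. The other probe of Cyp2c37 gave 1.14 ± 0.36 (adjusted p = 0.03964). Cyp2c39 had 1 probe. Probe sequences were not used here, and how far each probe also binds transcripts of related copies was not tested. The assignment of signal among these genes is therefore uncertain.

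**Figure D1:**
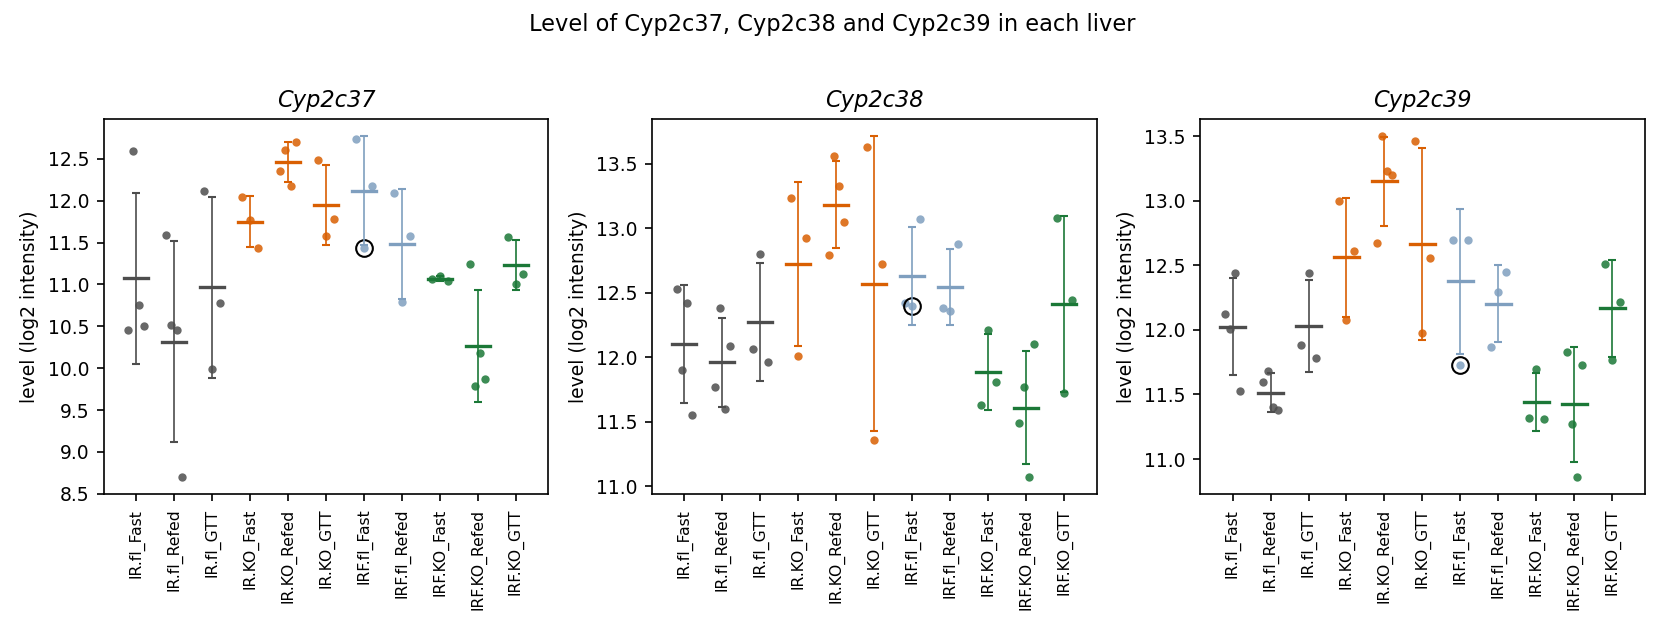
Level (log2 intensity) of Cyp2c37, Cyp2c38 and Cyp2c39 in each liver, in 11 groups of genotype and state. Points are mice, lines are group means with SD, and a ring marks IRF.fl_Fast_523, whose Foxo1 goes against its label. The refed IR.KO livers, at 12.18 to 12.70 for Cyp2c37, lie above every refed IR.fl and every refed IRF.KO liver.

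In the other states the fitted differences of the same genes had the same direction in IR.KO livers but were not called. Within the slides that held both groups, with 1 liver of each, signs were mixed for fasted Cyp2c37 (-1.15 and 1.59). After glucose they were mixed for Cyp2c37 (1.71 and -0.55) and Cyp2c38 (1.67 and -0.7). Fasted Cyp2c38 was higher on each slide (1.02 and 0.7), as was Cyp2c39 fasted (0.6 and 0.88) and after glucose (1.69 and 0.11). Fasted, the differences were 0.93 for Cyp2c37, 0.62 for Cyp2c38 and 0.61 for Cyp2c39 (limma adjusted p = 0.342, 0.4029 and 0.266), and 0 of the 10 genes were called (2 at an unadjusted p under 0.05) in a comparison that called 8.06% of all genes. Fasted Cyp2c37 levels were 12.04, 11.77 and 11.44 in IR.KO and 10.45, 12.59, 10.75 and 10.50 in IR.fl livers, which overlapped through IR.fl_Fast_491. After glucose the Cyp2c37 difference was 1.05 ± 0.55 (adjusted p = 0.2964), and 0.49 without IR.fl_GTT_691 (adjusted p = 0.7469), and 0 of 10 genes were called (1 at an unadjusted p under 0.05) where 8.3% of all genes were. Taken as the mean over the 3 states, the IR.KO levels were higher by 1.36 ± 0.31 for Cyp2c37, 0.79 ± 0.23 for Cyp2c38 and 0.99 ± 0.18 for Cyp2c39 (adjusted p = 0.001953, 0.01243 and 2.03e-04). These were the 3 of 10 called, against 21.1% of all genes. The Cyp2c38 mean lost its call without IR.KO_Fast_505, at 0.68 (adjusted p = 0.056), or IR.KO_GTT_667, at 0.52 (adjusted p = 0.08761). The mean of both Cyp2c38 probes gave 1.30 over the 3 states.

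The remaining 7 genes were not called between IR.KO and IR.fl livers in any state. Cyp2c50 and Cyp2c54, both epoxygenases of arachidonic and linoleic acid, differed by 0.63 and 0.84 in refed livers (limma adjusted p = 0.4684 and 0.3255; 95% intervals -0.27 to 1.53 and -0.13 to 1.81). Cyp2c29, the epoxygenase next to Cyp2c39, differed by -0.37 (interval -0.99 to 0.24). Cyp3a11, a main steroid and drug hydroxylase of mouse liver, differed by 0.62 refed and by -1.09 ± 0.46 fasted (adjusted p = 0.4561 and 0.1683). Fasted Cyp3a11 levels were 14.05, 14.12 and 14.11 in IR.KO and 14.79, 15.19, 15.88 and 14.99 in IR.fl livers, so the groups did not overlap although the difference was not called. Groups apart in either direction were found for 1 of the 10 genes and 14.2% of all genes. Cyp3a11 came near the highest value in the table, 16 on the log2 scale, in 3 livers, at 15.88, 15.92 and 15.87, and what this limit does to its differences was not tested. Cyp3a13 differed by -0.28 refed, while its second probe gave -1.09 ± 0.35 refed and -1.04 ± 0.23 over the 3 states (adjusted p = 0.04025 and 0.001276), so its 2 probes disagree on the call.

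The livers that lacked both genes were compared with those that lacked the receptor alone, which asks how the levels differ when FoxO1 is also absent. Cyp2c37, Cyp2c38, Cyp2c39 and Cyp3a25, a testosterone hydroxylase of liver and gut, were lower in refed IRF.KO than in refed IR.KO livers, by 4.67-fold, 3.41-fold, 3.49-fold and 2.02-fold. They were 4 of 10 genes called, against 8.09% of all genes in either direction. All 10 fitted differences were negative, as were 48.7% of those of all genes, with a median of -0.99 for the 10 against 0.003.

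Refed IRF.KO levels of Cyp2c39 were 11.83, 11.27, 10.86 and 11.73, each below the lowest IR.KO value of 12.67. The difference was -1.80 ± 0.28 (95% interval -2.39 to -1.22, limma adjusted p = 1.06e-04), and -0.94, -1.65 and -2.64 within the 3 shared slides. Cyp2c37 stood at 11.24, 9.79, 10.18 and 9.87 in IRF.KO livers. All 4 were below every refed IR.KO liver, and IRF.KO_Refed_468 was the highest of them. The difference was -2.22 ± 0.48 (interval -3.21 to -1.24, adjusted p = 0.003372), with -2.47, -2.18 and -2.42 within slides. Cyp2c38 levels were 11.49, 11.77, 11.07 and 12.10, below the lowest IR.KO value of 12.79. Its difference was -1.77 ± 0.35 (interval -2.49 to -1.05, adjusted p = 0.001565), with -0.69, -1.42 and -2.49 within slides.

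Cyp3a25 was at 11.83, 11.65, 12.35 and 11.81 in refed IRF.KO livers and at 12.83, 13.36, 12.60 and 12.77 in refed IR.KO livers, without overlap. The difference was -1.01 ± 0.23 (95% interval -1.48 to -0.54, limma adjusted p = 0.005171), and -1.02, -1.03 and -1.01 within the 3 slides. With slide as a block it was -0.93 with an adjusted p of 0.0635. In this comparison 5 of the 10 genes had groups apart with IRF.KO lower, against 7.28% of all genes, the fifth being Cyp3a13, which was not called (-0.97, adjusted p = 0.1878). Cyp2c50 differed by -1.02 ± 0.44 (adjusted p = 0.1747). Leaving out each liver in turn kept all 4 calls, with -2.68 to -2.07 for Cyp2c37, -1.92 to -1.55 for Cyp2c38, -2.01 to -1.60 for Cyp2c39 and -1.08 to -0.89 for Cyp3a25.

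The second probe of Cyp2c38 gave -3.08 ± 0.57 and that of Cyp2c37 gave -1.57 ± 0.37 in refed livers (limma adjusted p = 7.30e-04 and 0.005974). Fasted, Cyp2c39 was the 1 of 10 genes called, against 6.52% of all, with 11.32, 11.70 and 11.31 in IRF.KO and 13.00, 12.08 and 12.61 in IR.KO livers. The groups did not overlap, as held in either direction for 4 of the 10 genes and 16.3% of all genes. The difference was -1.13 ± 0.33 (limma adjusted p = 0.03489). This call was lost without any of IRF.KO_Fast_518, IRF.KO_Fast_525, IR.KO_Fast_505 or IR.KO_Fast_550, with values from -1.14 to -0.92 and adjusted p from 0.08299 to 0.2029. It was also lost with no array block, with slide as a block and with the 2 groups fitted alone (adjusted p = 0.05915, 0.1212 and 0.1198). After glucose 0 of 10 genes were called (2 at an unadjusted p under 0.05), against 7.57%, and the differences ran from -0.69 to 0.93. Over the 3 states Cyp2c37, Cyp2c38 and Cyp2c39 were lower by 1.11 ± 0.33, 0.89 ± 0.24 and 1.12 ± 0.19 (adjusted p = 0.01802, 0.00984 and 1.28e-04), the 3 of 10 called against 17.8% of all genes. The second probe of Cyp2c37 had the same sign over the 3 states without a call, and the mean of both Cyp2c38 probes gave -1.54.

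Kupffer cell markers also differed between refed IR.KO livers and the refed IR.fl and IRF.KO livers. All 8 of 8 markers were measured, none at 0, and the lowest was Timd4 with a mean level of 6.40. Their mean per liver was 10.04 to 10.29 in refed IR.KO, 8.58 to 8.81 in refed IR.fl and 9.02 to 9.67 in refed IRF.KO livers. In refed IRF.fl livers it was 8.59 to 9.20, with a median of 8.80 against 9.35 in refed IRF.KO livers. The 10 genes had the other direction in that comparison, with lower fitted levels in IRF.KO. All 8 markers were called higher in refed IR.KO than in IR.fl livers, with a median difference of 1.38, and 7 of 8 were called lower in refed IRF.KO than in IR.KO livers, with a median of -0.79. Of the 7 hepatocyte markers, 1 (Ttr) was called lower in refed IR.KO livers, and the median difference was -0.14. Their mean per liver was 14.29 to 15.18 in refed IR.KO, 15.26 to 15.37 in refed IR.fl and 15.07 to 15.18 in refed IRF.KO livers. Apoa2, Serpina1a, Alb and Fgb had mean levels of 15.88, 15.82, 15.79 and 15.57, near the highest value in the table, 16. What this limit does to their differences was not tested. Many Cyp2c genes are expressed most around the central vein. Pericentral markers (9 of 10 measured) had a mean per liver of 10.63 to 10.93 in refed IR.KO, 10.67 to 10.80 in refed IR.fl and 10.73 to 11.16 in refed IRF.KO livers, ranges that overlap. Periportal markers (6 of 8 measured) were at 12.10 to 12.42, 12.70 to 13.03 and 12.26 to 12.72, so refed IR.KO livers lay below refed IR.fl livers. The part of any of these markers in the Cyp2c and Cyp3a differences was not tested. Mouse numbers also differed between the genotypes, and their part was likewise not tested.

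The difference in knockout effect between the lines was tested directly, as IRF.KO minus IRF.fl against IR.KO minus IR.fl over the fasted and refed states. It was -2.63 ± 0.52 for Cyp2c37, -1.89 ± 0.38 for Cyp2c38 and -2.08 ± 0.31 for Cyp2c39 (limma adjusted p = 0.003067, 0.003585 and 1.17e-04). These were the 3 of 10 genes called, against 4.19% of all genes. Without IRF.fl_Fast_523 the values were -2.70, -1.95 and -2.19 (adjusted p = 0.003189, 0.003278 and 2.83e-05). The second probes gave -1.44 ± 0.40 for Cyp2c37 and -3.58 ± 0.62 for Cyp2c38 (adjusted p = 0.03581 and 6.54e-04). Cyp2c50 and Cyp2c54 had differences of -1.24 and -1.35 that were not called (adjusted p = 0.1573 for each). Without IRF.fl_Fast_523 they were -1.35 and -1.46 (adjusted p = 0.1186 and 0.1209). Without IR.fl_Refed_566 they were -0.82 and -0.87, and the mean of the Cyp2c54 probes gave -0.72. This contrast also takes in the difference between the floxed lines, IRF.fl minus IR.fl. For Cyp2c37 that difference was 1.04 fasted and 1.42 refed, neither called. It was 1.27 fasted without IRF.fl_Fast_523 and 0.53 refed without IR.fl_Refed_566.

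Against their own floxed controls the IRF.KO livers showed no called gene among the 10. In refed livers 0 of 10 were called where 0.378% of all genes were, and all 10 fitted differences were negative, as were 50.6% of those of all genes. Their median was -0.97, against -0.001 over all genes. At an unadjusted p under 0.05 there were 8 of 10 genes lower, against 5.07% of all genes, and 6 of 10 had every IRF.KO liver below every IRF.fl liver, against 5.47%. The 3 livers of the control group leave wide intervals.

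Cyp2c50 had the largest fitted difference among these. Its levels were 12.97, 12.67, 11.70 and 12.21 in refed IRF.KO and 13.94, 13.22 and 13.49 in refed IRF.fl livers, without overlap. The difference was -1.68 ± 0.50 (95% interval -2.70 to -0.66, limma adjusted p = 0.1355). Under the alternative settings it ran from -2.07 to -1.21, and that of Cyp2c37 from -1.55 to -1.19, so the order of the genes depends on the setting. Cyp2c54 differed by -1.60 ± 0.54, Cyp2c37 by -1.55 ± 0.54, Cyp3a11 by -1.10 ± 0.48 and Cyp2c38 by -1.01 ± 0.40 (adjusted p = 0.2056, 0.2353, 0.398 and 0.3214). The Cyp3a11 difference was -0.50 without IRF.fl_Refed_467 (adjusted p = 0.8292). Cyp2c39 differed by -0.92 ± 0.32 and Cyp3a25 by -0.82 ± 0.26 (adjusted p = 0.2248 and 0.1781).

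Fasted, 0 of 10 genes were called (1 at an unadjusted p under 0.05) against 0.00445% of all, and the differences ran from -0.96 (Cyp2c39) to 0.58 (Cyp3a11). Without IRF.fl_Fast_523 0 of 10 were called and they ran from -1.33 (Cyp2c39, limma adjusted p = 0.4821) to 0.27 (Cyp2c55). Cyp3a11 then differed by 0.21 in place of 0.58, Cyp3a13 by -0.86 in place of -0.42, Cyp2c50 by -0.88 in place of -0.50 and Cyp2c54 by -0.83 in place of -0.44. Cyp2c29 and Cyp3a25 moved from -0.04 and -0.05 to -0.15 and -0.35. As a mean over both states 0 of 10 were called (6 at an unadjusted p under 0.05) against 0.187%, with -1.12 for Cyp2c37, -1.09 for Cyp2c50 and -1.02 for Cyp2c54 (limma adjusted p = 0.3841, 0.339 and 0.4384), and with -1.20, -1.22 and -1.15 without IRF.fl_Fast_523 (adjusted p = 0.296, 0.2055 and 0.3026). Without IRF.fl_Fast_523 the mean difference of Cyp2c39 was called, at -1.06 ± 0.23 (adjusted p = 0.02651), against -0.94 with that mouse (adjusted p = 0.1297). In fasted IRF.fl livers Cyp2c39 stood at 12.70 and 12.70, and at 11.73 in IRF.fl_Fast_523.

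**Figure D2:**
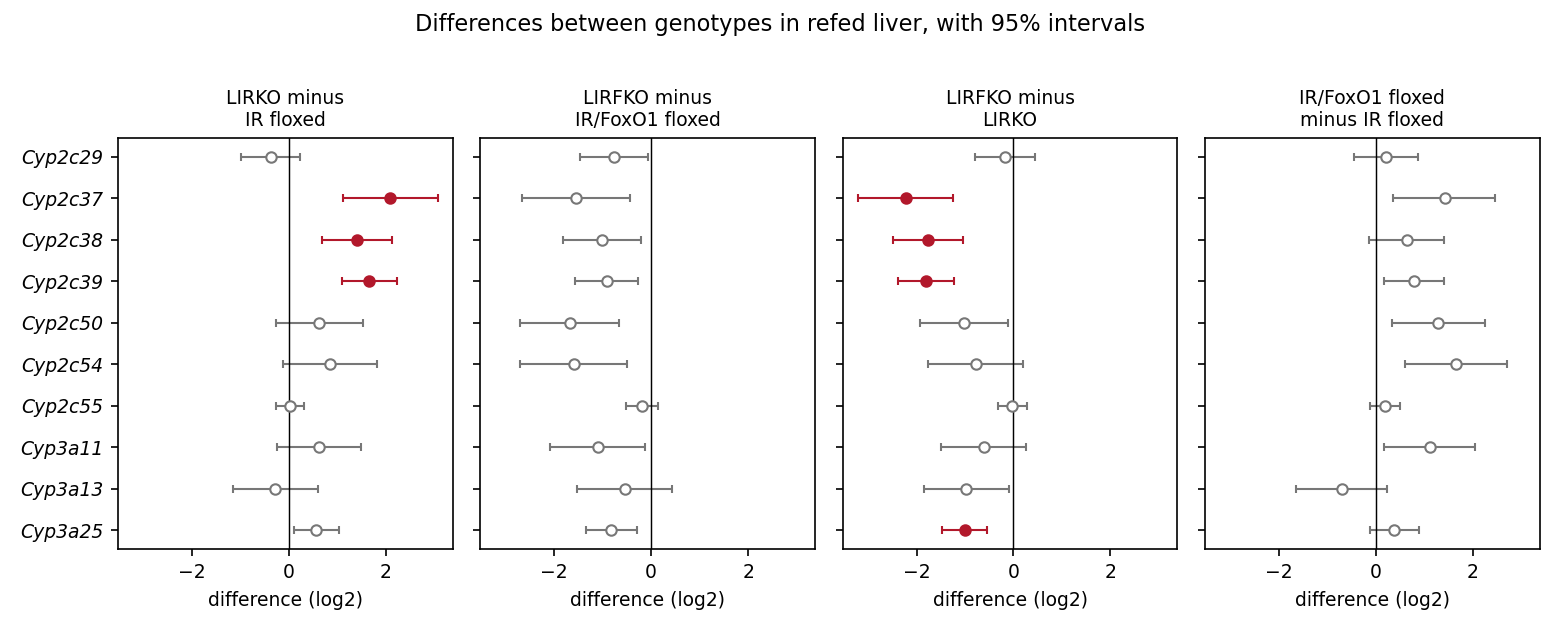
Fitted differences (log2) between genotypes in refed liver for the 10 genes, with 95% intervals; filled red points have an adjusted p under 0.05. LIRKO is IR.KO and LIRFKO is IRF.KO, and IR floxed and IR/FoxO1 floxed are IR.fl and IRF.fl. Cyp2c37, Cyp2c38 and Cyp2c39 lie at 2.09, 1.40 and 1.66 in the first panel and at -2.22, -1.77 and -1.80 in the third.

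The floxed control lines were also set against each other, since both serve as baselines. None of the 10 genes was called, with 0.0845% of all genes called refed and 0.0356% fasted; by unadjusted p under 0.05 there were 5 of 10 refed and 0 of 10 fasted. Refed IRF.fl livers had higher Cyp2c54, by 1.66 ± 0.51, Cyp2c37, by 1.42 ± 0.51, Cyp2c50, by 1.29 ± 0.47, and Cyp3a11, by 1.11 ± 0.46, none called by limma (adjusted p = 0.4071, 0.5917, 0.5917 and 0.6741). The first 3 rested on IR.fl_Refed_566, in which Cyp2c54 was 10.22 and Cyp2c50 10.72. Without it they were 0.66, 0.53 and 0.39. The Cyp3a11 difference was 0.40 without IRF.fl_Refed_467, in which Cyp3a11 was 15.92. Without IRF.fl_Refed_467 the Cyp2c37 difference was 0.85. Fasted, Cyp2c37 differed by 1.04 (adjusted p = 0.6764), by 1.27 without IRF.fl_Fast_523, by 1.75 without IR.fl_Fast_491, and by 0.69 with the mean of its probes. Without IRF.fl_Fast_523 the fasted difference was 1.01 for Cyp2c54 (0.63 with it), 0.80 for Cyp2c39 (0.45 with it), 0.70 for Cyp2c50 (0.34 with it), -0.53 for Cyp3a11 (-0.88 with it) and 0.01 for Cyp3a13 (-0.41 with it), and 0 of 10 were called.

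On refeeding, Cyp3a25 was called lower in IR.fl and in IRF.KO livers, and no other of the 10 genes was called in any genotype. Each of these comparisons called 1 of 10 genes, against 3.61% and 1.81% of all genes. In IRF.KO livers the levels were 13.19, 13.25 and 13.14 fasted and 11.83, 11.65, 12.35 and 11.81 refed, without overlap. Groups apart in either direction were found for 2 of the 10 genes and 11.6% of all genes. The difference was -1.28 ± 0.25 (95% interval -1.79 to -0.78, limma adjusted p = 0.008039), and -1.45 within the 1 slide that held both groups. It ranged from -1.35 to -1.25 when each liver was left out and remained called. With slide as a block it was -1.18 (adjusted p = 0.1249), and with the 2 groups fitted alone -1.24 (adjusted p = 0.05301).

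In IR.fl livers Cyp3a25 was at 12.87, 13.72, 13.45 and 13.15 fasted and at 11.77, 12.36, 12.31 and 13.11 refed. IR.fl_Refed_566, at 13.11, overlapped the fasted group. The difference was -1.0 ± 0.23 (95% interval -1.48 to -0.53, limma adjusted p = 0.01307), and -1.41 and -0.04 within the 2 slides that held both groups. The call was lost without IR.fl_Fast_542, at -0.87 (adjusted p = 0.1039), or IR.fl_Refed_506, at -0.72 (adjusted p = 0.1472). It was also lost with slide as a block, at -0.82 (adjusted p = 0.1743), with no array block, at -0.91 (adjusted p = 0.06425), and with the 2 groups fitted alone, at -0.91 (adjusted p = 0.2591).

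Cyp3a11 had a larger difference on refeeding in IR.fl livers that was not called, with 14.79, 15.19, 15.88 and 14.99 fasted and 13.31, 14.58, 14.86 and 13.62 refed. IR.fl_Refed_562, at 14.86, overlapped the fasted range. The difference was -1.34 ± 0.43 (limma adjusted p = 0.08449), and -1.71 and called without IR.fl_Refed_562 (adjusted p = 0.03609). In IRF.KO livers it was -1.02 ± 0.46 (adjusted p = 0.3081), and -0.53 without IRF.KO_Fast_519 or -0.63 without IRF.KO_Refed_524. In IR.fl livers it was also called when only genes above the median level were tested (-1.30, adjusted p = 0.04793).

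In IR.KO and IRF.fl livers 0 of 10 genes were called on refeeding, against 1.85% and 3.54% of all genes, and by unadjusted p under 0.05 there were 0 and 1. In IR.KO livers 9 of the 10 differences were positive, with a median of 0.48, while in IR.fl the median was -0.44 and in IRF.KO -0.49. Over all genes these medians were -0.002, -0.003 and -0.002, and the share of positive differences was not counted. Cyp3a25 was at 12.41, 12.94 and 12.66 fasted and 12.83, 13.36, 12.60 and 12.77 refed in IR.KO livers, a difference of 0.20 (95% interval -0.34 to 0.74). In IRF.fl livers it was -0.51 (interval -1.05 to 0.03), and -0.89 without IRF.fl_Fast_523 (adjusted p = 0.1143). Without that library 0 of 10 genes were called in IRF.fl livers, and Cyp3a13 differed by -1.34 in place of -0.78 (adjusted p = 0.274).

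Whether the refeeding response itself differed between genotypes was tested as an interaction. None of the 10 genes was called between IR.KO and IR.fl, against 0.165% of all genes, or between IRF.KO and IR.KO, against 0.0222%; the counts by unadjusted p under 0.05 were 3 and 3. For Cyp3a25 the response was higher in IR.KO than in IR.fl by 1.20 ± 0.33 and lower in IRF.KO than in IR.KO by 1.48 ± 0.34 (limma adjusted p = 0.1749 and 0.2039). For Cyp3a11 the values were 1.71 ± 0.62 and -1.39 ± 0.63 (adjusted p = 0.368 and 0.8208). Cyp2c37 gave 1.16 and -1.65, and Cyp2c54 gave 1.02 and -1.16. Cyp2c39 gave 1.05 in the first contrast and Cyp2c50 gave -1.18 in the second. Without IR.fl_Refed_566 the first contrast fell to 0.62 for Cyp2c37 and 0.40 for Cyp2c54, and without IR.fl_Fast_491 it was 0.76 for Cyp2c37. Without IR.KO_Fast_550 the second was -0.77 for Cyp2c50 and -0.75 for Cyp2c54. The mean of the Cyp2c54 probes gave 0.53 and -0.71. Both contrasts use the IR.KO livers.

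**Figure D3:**
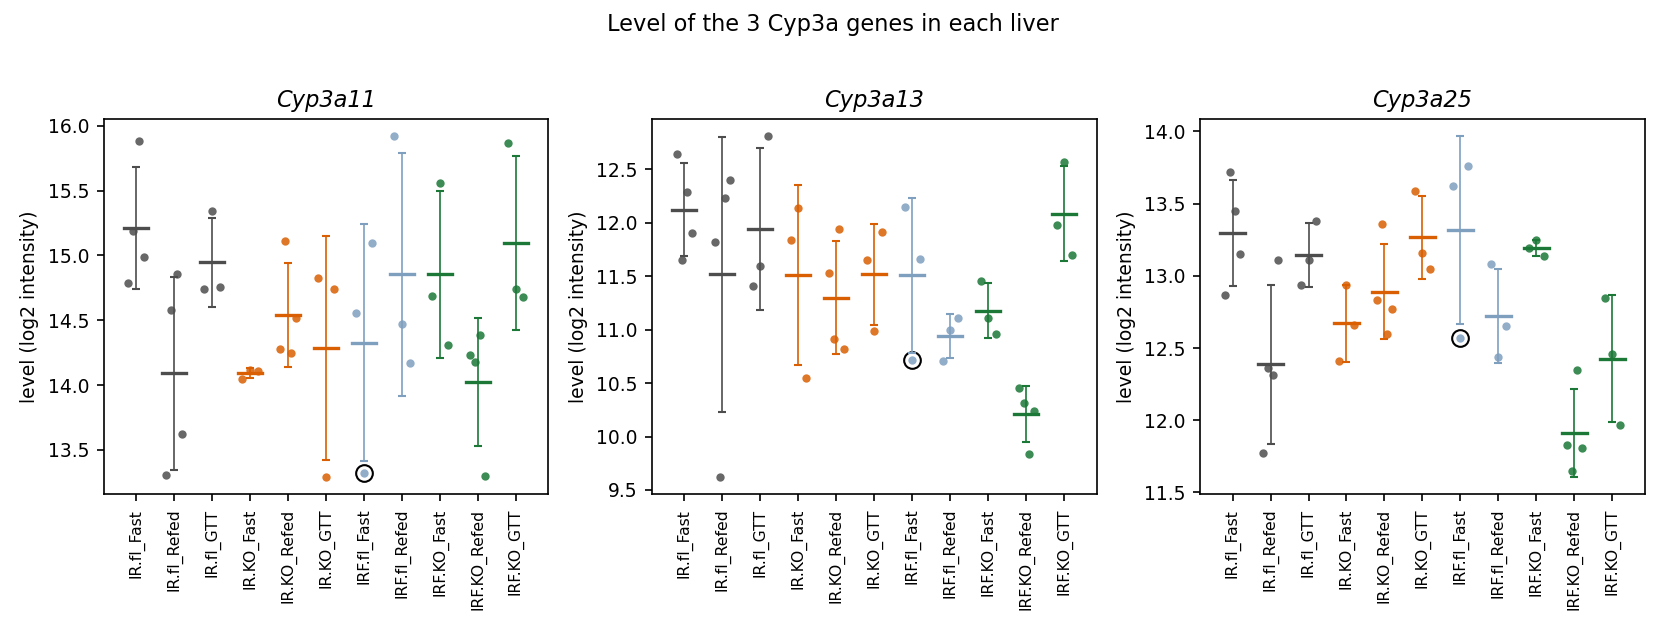
Level (log2 intensity) of Cyp3a11, Cyp3a13 and Cyp3a25 in each liver, drawn as for the Cyp2c genes, with a ring for IRF.fl_Fast_523. Refed IRF.KO livers lie at 11.65 to 12.35 for Cyp3a25, below the fasted IRF.KO livers at 13.14 to 13.25.

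A glucose load was followed by no called change in any of the 10 genes. The comparisons with fasted livers called 0 of 10 genes in IR.fl, IR.KO and IRF.KO mice, against 0.16%, 0.596% and 0.654% of all genes, and by unadjusted p under 0.05 the counts were 0, 0 and 2. The medians of the 10 differences were -0.16, 0.06 and 0.12. The 2 genes in IRF.KO livers were Cyp3a25, by -0.74 ± 0.26, and Cyp2c39, by 0.75 ± 0.32 (limma adjusted p = 0.2127 and 0.3316). The glucose-treated mice carry higher mouse numbers than all fasted and refed mice, and treatment and what those numbers may mark cannot be told apart.

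Each gene had its own order of group means. Cyp2c37, Cyp2c38 and Cyp2c39 were highest in refed IR.KO livers, at 12.46 ± 0.234, 13.18 ± 0.335 and 13.15 ± 0.345 (mean ± SD, n = 4), and lowest in refed IRF.KO livers, at 10.27 ± 0.667, 11.61 ± 0.438 and 11.42 ± 0.449 (n = 4). For Cyp2c39 the neighbours at the top, glucose-treated IR.KO at 12.67 ± 0.745 and fasted IR.KO at 12.56 ± 0.462, were within their spread of each other, as were the lowest 3, refed IRF.KO, fasted IRF.KO at 11.45 ± 0.221 and refed IR.fl at 11.52 ± 0.148. Cyp2c50 and Cyp2c54 were highest in refed IRF.fl livers, at 13.55 ± 0.361 and 13.62 ± 0.344 (n = 3). Without IRF.fl_Fast_523 the fasted IRF.fl mean was above these, at 13.72 and 13.94, and that of Cyp2c37, at 12.46, equalled the refed IR.KO mean to 2 decimals. Cyp2c50 was lowest in refed IRF.KO livers, at 12.39 ± 0.554, and Cyp2c54 in refed IR.fl livers, at 12.43 ± 1.488, where IR.fl_Refed_566 sets the mean. Cyp2c29 ran from 14.15 ± 0.726 in refed IR.fl to 13.05 ± 0.699 in glucose-treated IR.KO livers, and the livers of these groups overlapped.

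Cyp3a11 ran from 15.21 ± 0.473 in fasted IR.fl to 14.02 ± 0.489 in refed IRF.KO livers. Cyp3a13, an enzyme of gut and liver, ran from 12.12 ± 0.435 in fasted IR.fl to 10.21 ± 0.260 in refed IRF.KO livers, whose values of 10.45, 10.31, 9.84 and 10.24 lay below every other liver except IR.fl_Refed_508 at 9.62. Cyp3a25 was highest in fasted IRF.fl livers, at 13.32 ± 0.652, or 13.69 without IRF.fl_Fast_523, and next in fasted IR.fl, at 13.30 ± 0.370, with no difference beyond their spread, and lowest in refed IRF.KO livers, at 11.91 ± 0.306. In all, 7 of the 10 genes had their lowest group mean in refed IRF.KO livers. The share of all genes with their lowest mean in that group was not counted, so this is a description of the 10 only. Besides Cyp2c39, the next lowest mean was close, within the spread, for 3 of the genes. It was 10.32 in refed IR.fl against 10.27 for Cyp2c37, and 12.54 in fasted IRF.KO against 12.39 for Cyp2c50. For Cyp3a11 it was 14.09 in refed IR.fl and in fasted IR.KO livers against 14.02.

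Cyp2c55, a P450 best known from colon and kidney, stayed low. Its values were 5.28 to 6.32 in the 37 livers, where the lowest value in the table was 5.07 and the medians of the arrays' columns were 5.72 to 5.78. Group means ran from 5.42 in fasted IR.KO to 5.71 in refed IRF.fl livers, and the latter rested on IRF.fl_Refed_467 at 6.32, with 5.36 and 5.46 in the others. No difference of this gene exceeded 0.28 in any of the 23 comparisons.

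**Figure D4:**
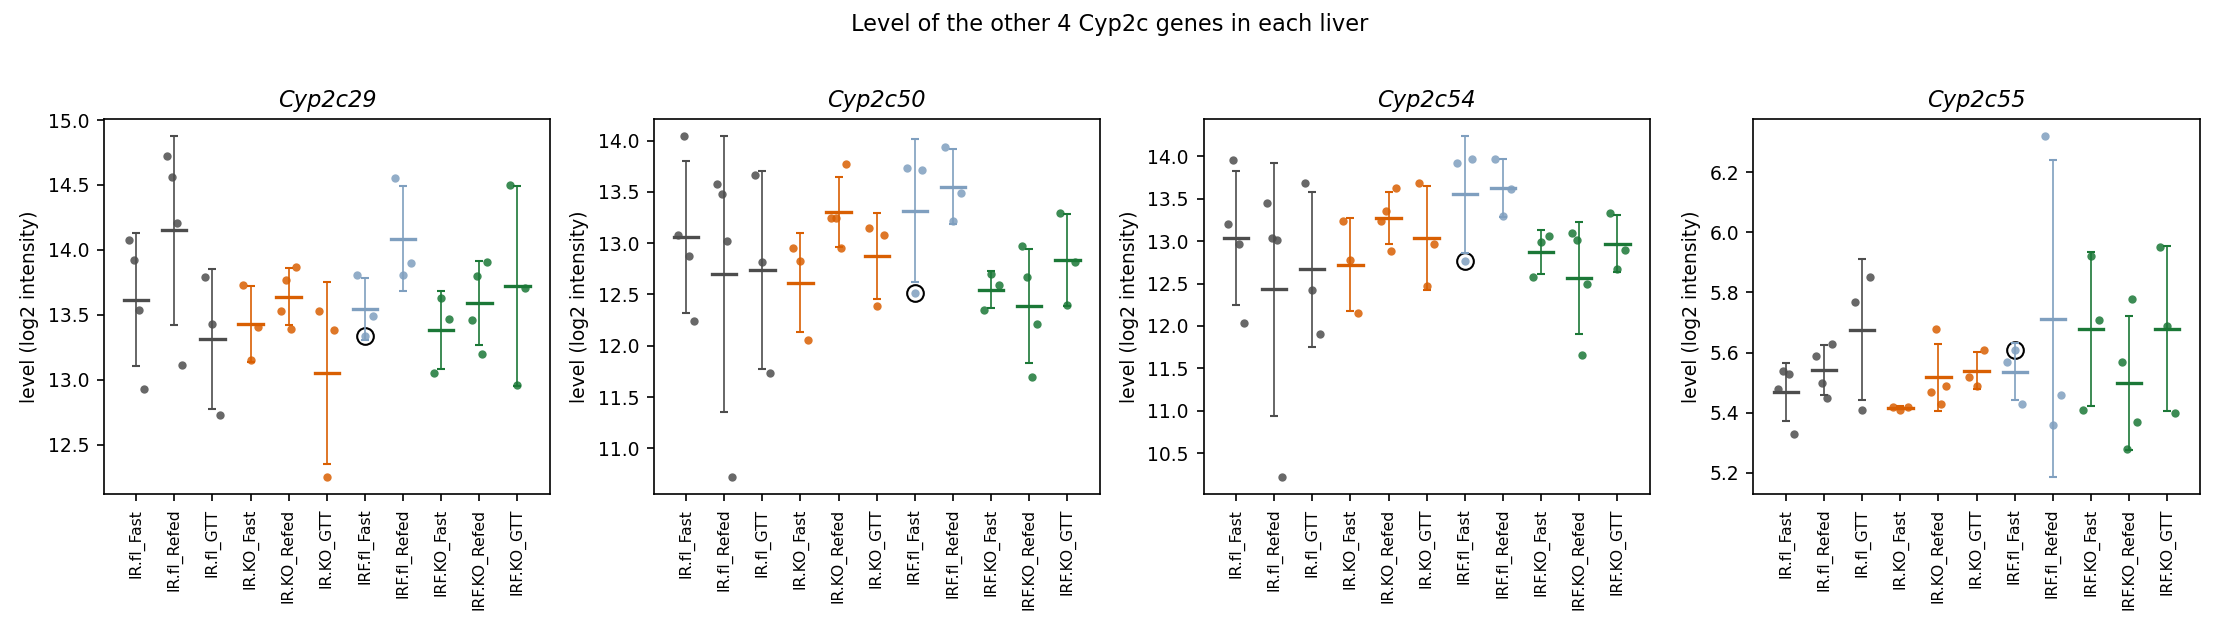
Level (log2 intensity) of Cyp2c29, Cyp2c50, Cyp2c54 and Cyp2c55 in each liver, drawn as for the other genes. IR.fl_Refed_566 is low for Cyp2c50 (10.72) and Cyp2c54 (10.22), and Cyp2c55 lies between 5.28 and 6.32 throughout.

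Patterns over the 11 group means fell into small sets. These correlations are descriptions over means of livers that share arrays and groups. Cyp2c38 and Cyp2c39 correlated at 0.962, Cyp2c37 with Cyp2c38 at 0.920 and with Cyp2c39 at 0.915. Over the 37 single livers the same pairs stood at 0.896, 0.487 and 0.671. Cyp2c50 and Cyp2c54, neighbours in the genome, correlated at 0.903 over group means and at 0.952 over livers. Among all genes above the median level, the closest to Cyp2c37 was Acaa1a (0.944), a peroxisomal thiolase. Cyp3a11 was closest to its relatives Cyp3a41b (0.978) and Cyp3a16 (0.971), and Cyp3a25 to Odf3b (0.965) and Cyp3a57 (0.963). Cyp3a13 was closest to Man1a (0.943) and Lbp (0.892), and Cyp2c29 to 2610002M06Rik (0.955). Probes of one gene correlated at 0.96 or more for Cyp2c29 and at 0.919, 0.865, 0.853 and 0.756 for Cyp2c38, Cyp3a11, Cyp3a13 and Cyp2c37, but at 0.228 and 0.667 for the other probes of Cyp2c54, so its values depend on the probe.

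Along chromosome 19 of GRCm38.p6 the Cyp2c genes follow in the order drawn in the plot of differences by gene order. Cyp2c39 has annotated starts on both sides of the Cyp2c38 start. Of 15 other Cyp2c and Cyp3a genes, 11 were measured. In refed livers 1 of them was called higher and 3 lower in IR.KO than in IR.fl, and 7 were not called, where 11.6% of all genes were called. The 3 lower were all Cyp2c genes: Cyp2c67, by -1.88 ± 0.42, Cyp2c68, by -1.79 ± 0.32, and Cyp2c70, a bile acid hydroxylase, by -3.64 ± 0.44 (limma adjusted p = 0.002583, 2.60e-04 and 1.50e-06). In the order drawn, which sorts genes by their lowest coordinate, Cyp2c67 follows Cyp2c38, whose difference had the opposite sign. The Cyp2c39 start nearer Cyp2c67 lies between the Cyp2c38 start and Cyp2c67. The gene called higher was Cyp3a44, by 0.70 ± 0.19 (adjusted p = 0.01187).

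Between refed IRF.KO and IR.KO livers 2 of the 11 were called higher and 2 lower, against 8.09% of all genes in either direction. Cyp2c67 was higher by 1.91 ± 0.42 and Cyp2c68 by 1.81 ± 0.32, and Cyp3a57 was lower, by -0.91 ± 0.21, as was Cyp3a44, by -0.78 ± 0.19 (limma adjusted p = 0.003726, 4.71e-04, 0.006571 and 0.008164). Cyp3a57 was also lower on refeeding, by -0.82 ± 0.21 in IR.fl and -1.13 ± 0.23 in IRF.KO livers (adjusted p = 0.02717 and 0.01105), the same 2 genotypes in which Cyp3a25 was called. These genes belong to the same 2 families, and how far their probes bind transcripts of related copies was not tested either. The same uncertainty of probe assignment holds for them.

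**Figure D5:**
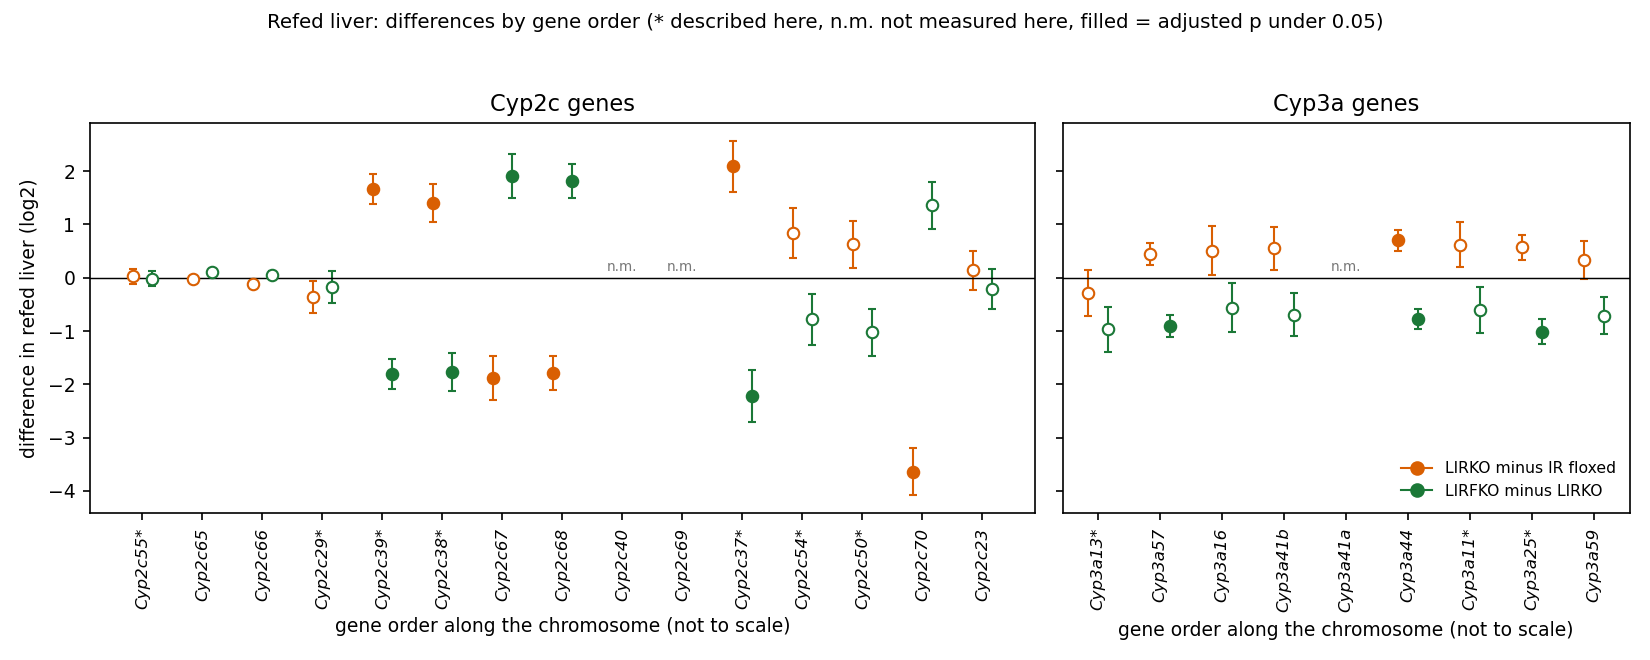
Differences (log2, with SE) in refed liver for Cyp2c genes along chromosome 19 and Cyp3a genes along chromosome 5, orange for IR.KO minus IR.fl and green for IRF.KO minus IR.KO. Filled points were called, stars mark the 10 genes, and n.m. marks genes not measured here. Genes are sorted by their lowest coordinate. Cyp2c39 and Cyp2c38 lie at 1.66 and 1.40 and the genes drawn next, Cyp2c67 and Cyp2c68, at -1.88 and -1.79.

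Genes that act with these enzymes were counted from lists. Of all genes, 11.6% were called between refed IR.KO and IR.fl livers and 8.09% between refed IRF.KO and IR.KO livers. Of 20 measured regulators, 1 was called higher and 5 lower in refed IR.KO than in IR.fl livers. The receptors CAR (Nr1i3) and PXR (Nr1i2) were not among them. The higher gene was the coactivator Ppargc1a, by 1.68 ± 0.38, and the lower genes included the bile acid receptor Nr1h4, by -0.98 ± 0.13, and the glucocorticoid receptor Nr3c1, by -0.56 ± 0.13 (limma adjusted p = 0.002961, 6.69e-06 and 0.00353). In refed IRF.KO against IR.KO livers 3 were higher, among them Nr1h4 by 0.81 ± 0.13 (adjusted p = 1.31e-04), and 1 lower, the deleted Foxo1.

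Of 20 other genes listed as CAR and PXR targets, 7 were higher and 2 lower in refed IR.KO than in IR.fl livers, with a median of 0.27. That comparison called 11.6% of all genes. Of the listed genes, Cyp2b13, a P450 of the Cyp2b family, was higher by 2.95 ± 0.41 and the exporter Abcc4 by 1.05 ± 0.17, while the aldehyde dehydrogenases Aldh1a7 and Aldh1a1 were lower by 2.13 and 2.32 (limma adjusted p = 1.14e-05, 6.69e-05, 1.05e-07 and 4.19e-07). Between refed IRF.KO and IR.KO livers 3 were higher and 9 lower, Cyp2b13 by -2.83 ± 0.41 (adjusted p = 3.56e-05). Of 14 other P450 genes of drug metabolism, 0 were higher and 6 lower in refed IR.KO livers, led by Cyp2a12 at -1.59 ± 0.18 and Cyp2j5 at -1.58 ± 0.19 (adjusted p = 7.51e-07 and 1.47e-06), the opposite sign to Cyp2c37, Cyp2c38 and Cyp2c39. Between refed IRF.KO and IR.KO livers 5 of the 14 were higher and 0 lower. Of 12 genes listed for electron supply and haem synthesis or breakdown, 10 were not called between refed IR.KO and IR.fl livers. In refed IR.KO livers Hmox1, which breaks down haem, was higher by 0.96 ± 0.22 and Pgrmc1 lower, by -0.70 ± 0.17 (limma adjusted p = 0.003464 and 0.005684). P450 oxidoreductase was not among the 12.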

How the data were processed

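RNA of 38 livers (RNeasy with DNase, 200 ng labelled with Cy3 or Cy5) was hybridised to 20 Agilent arrays on 5 slides, per the labels' protocols. The deposited values are log2 intensities per feature and liver; R 3.1.0 and limma 3.20.1 were used per the submitters' processing notes, while how the authors corrected background and normalized is not given in the sources used here. Of 45220 features, 33026 were paired with 1 gene by the platform annotation and 12194 with none. Differences were fitted with limma 3.58.1 in R 4.3.3 (lmFit and eBayes) over 37 livers, with dye as a term, array as a random block (correlation 0.358) and no filter on level; p-values were Benjamini-Hochberg adjusted over 22485 genes in each of 23 comparisons. The number of arrays limits the precision. The fitting script was tested on simulated data. Library IRF.KO_GTT_724 was left out. A difference was given singly where called or at least 1; list genes were the called ones of smallest p, at most 4 per list; like patterns were the 3 highest correlations among genes above the median level, of which some are named; other values were chosen after they were seen. The members, lists and tests were chosen with earlier results of these data known. Alternatives were another probe rule, no array block, slide as a block, quantile normalization anew, genes above the median level only, eBayes with trend, fits without IRF.fl_Fast_523, fits of the compared groups alone, and leaving out each liver. Promoter windows are from RefSeq, GRCm38.p6.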

Additional observations from a re-analysis of the deposited data

Results flagged for a closer look

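In the fasted IR.fl group Cyp2c37 was 12.59 in IR.fl_Fast_491, far above the other 3 livers, of which the nearest was 10.75 and the lowest 10.45. In the refed IR.fl group Cyp2c54 was 10.22 in IR.fl_Refed_566, far below the other 3, at 13.01 to 13.45. Chance gives such a gap in about 1 in 20 groups, and 40 tests were run, of the 10 genes in each of the 4 groups of 4 livers. The tests share livers, so they are not independent.

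The effect of the knockout differed between the lines, by limma's test of the difference itself, for Cyp2c37 (-2.63, adjusted p = 0.003067), Cyp2c38 (-1.89, adjusted p = 0.003585) and Cyp2c39 (-2.08, adjusted p = 1.17e-04). These values also take in the difference between the floxed lines.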

How the results depend on the processing

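Over 23 counts of called genes among the 10, 392 of 410 alternative values stayed within 1.5 times and 18 moved. Of 1022 alternative values for 49 differences, 1002 kept sign and call, 18 lost the call, 2 gained it and 0 reversed. The count for refeeding in IR.fl went from 1 to 0 with no array block, with slide as a block and with only the groups compared, to 2 among genes above the median level, and ranged from 0 to 2 when each liver was left out. For refeeding in IRF.KO it went from 1 to 0 with slide as a block and with only the groups compared. For IRF.KO against IRF.fl over both states it went from 0 to 1 without IRF.fl_Fast_523, and ranged from 0 to 1 over left-out livers. For fasted IRF.KO against IR.KO it went from 1 to 0 with no array block, with slide as a block and with only the groups compared, and ranged from 0 to 1 over left-out livers. Fits of the compared groups alone use fewer samples, and the filter tests fewer genes; other causes were not tested. Groups of 3 or 4 livers limit the precision, Cyp2c55 lies near the lowest values of the arrays, Cyp3a11 near the highest, and Cyp2c39, Cyp2c50 and Cyp3a25 rest on 1 probe each. No paired analysis was possible because each mouse number occurs in 1 group only.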

Other observations

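The library IRF.KO_GTT_724, which entered no comparison, had Cyp2c37 at 10.74, Cyp2c39 at 11.34, Cyp2c54 at 12.10, Cyp3a13 at 12.22 and Cyp3a25 at 11.87. For Cyp3a25 the glucose-treated IRF.KO livers spanned 11.97 to 12.85 and the fasted ones 13.14 to 13.25. For Cyp2c39 the same groups spanned 11.77 to 12.51 and 11.31 to 11.70.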
